A study of Homo sapiens with 12 samples.

Results

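The genes that encode the transcriptional co-activators YAP and TAZ (YAP1 and WWTR1), their DNA-binding partners TEAD1, TEAD3, and TEAD4, and a set of their feedback and target genes (LATS2, AMOTL2, ANKRD1, CCN1, and CCN2) were followed in TIGK cells, a human keratinocyte line from the gingiva that was immortalized with hTERT, the catalytic subunit of telomerase. These 10 genes were chosen by name from the 58735 genes of the count table, where CCN1 and CCN2 are listed under their older symbols CYR61 and CTGF. All cells were kept at 48 mM glucose in a base medium that contained no L-Arginine (Arg). The Arg groups received 500 μM Arg for 24 or 48 h, and the control groups were cultured for 24 or 48 h with no Arg added. Each of the 4 groups had 3 libraries (A, B, and C), 12 in all, and each library held between 16542243 and 19040964 counts. The comparisons ask how Arg changed the transcriptome at high glucose, and how these genes moved between 24 and 48 h within each treatment.

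In the Hippo pathway, a cascade of kinases that ends in LATS1 and LATS2 phosphorylates YAP and TAZ and keeps them out of the nucleus. When the cascade is less active, for example in spread or sparse epithelial cells, YAP and TAZ enter the nucleus, bind TEAD factors, and raise the transcription of targets such as CCN1, CCN2, ANKRD1, and AMOTL2. In stratified epithelia, the pathway is known for its part in the proliferation of basal keratinocytes. The counts measure RNA, so they hold no information on phosphorylation or on where the proteins are in the cell.

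The core of the TEAD binding motif reads CATTCC on the DNA, or GGAATG on the other strand, and was searched on both strands of the RefSeq promoter windows (GRCh38.p14), which cover 250 bases before to 50 bases after a gene's start. Windows were found for 7 of the 10 genes, 9 windows in all, and 5 of these genes had a match. CCN1, TEAD1, and TEAD4 had no entry in the table used. Among all 35116 windows of the table, 14.0335% held at least 1 match, 1.3726% at least 2, and 0.1281% at least 3. The matches are shown so that the changes of the target genes can be set beside them, with the motif in capitals and every sequence written 5′ to 3′ on the strand of the gene. CCN2 (chr6:131951373-131951572, minus strand, the 200 bases before the start) held 3 matches, at positions −169, −104, and −95 from the start, where the base before the start is −1 and a position is that of the first base of the motif.
CCN2: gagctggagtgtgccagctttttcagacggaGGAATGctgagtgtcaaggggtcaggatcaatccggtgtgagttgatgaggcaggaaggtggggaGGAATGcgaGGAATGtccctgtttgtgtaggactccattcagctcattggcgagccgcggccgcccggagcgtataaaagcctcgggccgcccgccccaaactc
The other matches are shown in 30 bases each. ANKRD1 held 2 of them (chr10:90921290-90921319 and chr10:90921198-90921227, minus strand), at −220 and −128. AMOTL2 held 1 in the second of its 2 windows (chr3:134374499-134374528, minus strand), at −69 from that start. YAP1 held 1 (chr11:102110273-102110302, plus strand), at −162, and LATS2 held 1 (chr13:21061560-21061589, minus strand) at base 10 of the transcript, which overlaps an annotated UTR. These positions are from the start of each RefSeq window. By the gene bounds of the count table, the ANKRD1 match at −128 and the AMOTL2 match lie within the gene. By those bounds, the LATS2 match lies before the gene.
ANKRD1, distal: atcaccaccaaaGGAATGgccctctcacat
ANKRD1, proximal: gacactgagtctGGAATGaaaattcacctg
AMOTL2: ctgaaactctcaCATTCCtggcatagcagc
YAP1: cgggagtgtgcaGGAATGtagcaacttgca
LATS2: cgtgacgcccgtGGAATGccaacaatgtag
The WWTR1 and TEAD3 windows did not contain these letters. A match is a description of the sequence, and binding was not measured here.

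The identity of the cells was checked against markers of keratinocytes and of other cell types. All 10 keratinocyte markers were detected in every group, with a summed level of 39698 to 52612 counts per 1000000 counts (CPM) after TMM scaling of the library sizes. The 8 fibroblast markers summed to 30.3 to 54.4 CPM at 24 h and to 72.8 to 102.8 CPM at 48 h. DCN led them, and COL1A2 was at 0 in all 24 h libraries and had 1 count in each 48 h group. The 5 melanocyte markers summed to 16.2 to 30.6 CPM with TYR at 0, the 5 leukocyte markers to 0.991 to 3.57 CPM with LYZ at 0, and the 4 endothelial markers to 0.757 to 6.41 CPM. In bulk RNA, fewer cells of a type and less RNA per cell cannot be told apart. Replicate libraries differed by more than counting noise, with a chi-square per degree of freedom of 3.66 to 23.9, and the 2 highest values belonged to control replicate B at 48 h against its group. In that library, 1.55% of counts came from mitochondrial DNA, and in control A and C at 48 h the share was 0.906% and 0.707%. The libraries may come from separate wells of the same culture, so p-values measure the spread between these libraries.

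The levels of the 10 genes were compared with each other per kilobase of exon, as the mean over all 12 libraries. CCN1 (61.8 CPM per kb) and YAP1 (51.4) were the most abundant, and CCN1 lay above YAP1 in 10 of 12 libraries. AMOTL2 followed with 32.4 CPM per kb, below YAP1 and above TEAD4 in every library. TEAD4 (20.6) and TEAD3 (19.6) did not separate, since TEAD4 was the higher in 6 of 12 libraries, whereas TEAD3 lay above TEAD1 (14.7) in 11. CCN2 had 5.10 CPM per kb, WWTR1 3.25, and LATS2 2.90, and WWTR1 lay above LATS2 in only 7 of 12 libraries. ANKRD1 was close to the limit of detection with 0.498 CPM per kb and 215 counts over all libraries. The 2 secreted CCN genes were therefore far apart, with CCN1 at the top of the order and CCN2 below TEAD1, TEAD3, and TEAD4. The 2 pseudogenes of YAP1 in the table had 0 counts.

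**Figure D1:**
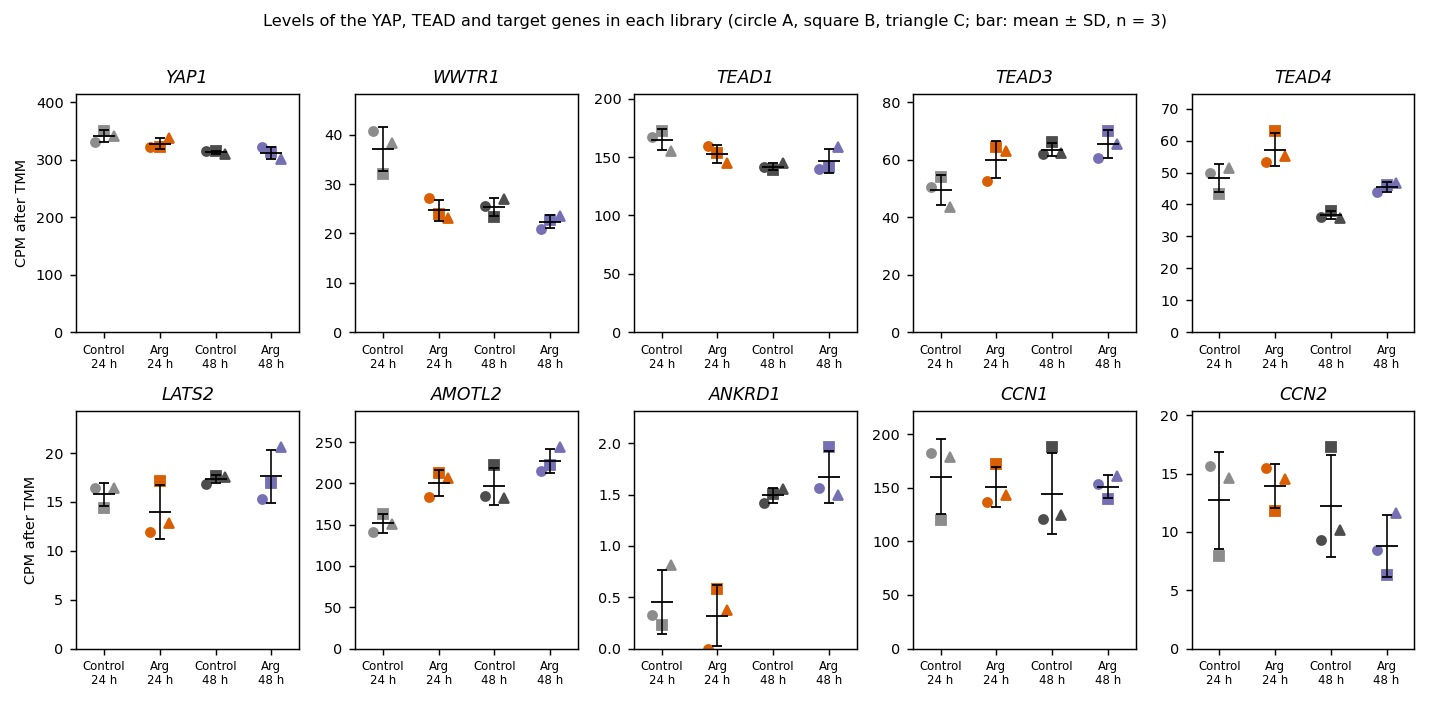
CPM after TMM of the 10 genes (y axis, starting at 0) in the 4 groups (x axis), with each library as a point and the mean ± SD (n = 3) in black. WWTR1 was highest in the 24 h control libraries, TEAD4 was lowest in the 48 h control libraries, and replicate B of the control stood apart from A and C in CCN1 and CCN2 at both times.

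After 24 h, Arg-treated TIGK cells had less WWTR1 RNA and more AMOTL2 RNA than control cells, while YAP1, TEAD1, LATS2, CCN1, and CCN2 did not pass the test. WWTR1, which encodes TAZ, was downregulated to 0.666 of its control level, and AMOTL2, whose protein holds YAP and TAZ in the cytoplasm and at cell junctions, was upregulated 1.32-fold. At an adjusted p under 0.05 from edgeR's quasi-likelihood test with Benjamini–Hochberg adjustment over all genes, 2 of the 9 genes tested passed, against 6.63% of the 14279 genes tested in the table, with 1 higher (2.79% of all genes) and 1 lower (3.84% of all genes). At an unadjusted p under 0.05, 4 of the 9 passed, against 22.8% of all genes. ANKRD1 was left out by the filter on low counts.
WWTR1 (ENSG00000018408, chromosome 3, 149517235 to 149736714) was at 40.8, 32.1, and 38.3 CPM in control libraries A, B, and C at 24 h. It was at 27.1, 24.0, and 23.1 CPM in the Arg libraries. All 3 Arg libraries lay below all 3 control libraries, a separation seen in 26.2% of all genes tested. The means were 37.1 ± 4.48 and 24.7 ± 2.14 CPM (SD, n = 3), and the log2 fold change was −0.59 (SE 0.11, 95% interval −0.83 to −0.35, edgeR adjusted p = 0.00472). This call held in all 14 alternatives, with edgeR or DESeq2 adjusted p-values between 3.59e-05 and 0.0423. WWTR1-AS1, on the opposite strand within WWTR1, had 38 counts over all libraries against 5940 for WWTR1.
YAP1 (ENSG00000137693, chromosome 11, 102110461 to 102233423), the paralog of WWTR1, was at 330.2, 350.9, and 342.2 CPM in the control and at 321.8, 323.2, and 338.6 CPM in the Arg libraries at 24 h. The groups overlapped. The log2 fold change was −0.06 with a 95% interval of −0.21 to 0.09, an interval that does not reach the −0.59 of WWTR1. Per kilobase, WWTR1 RNA was 8.16% ± 1.22 of YAP1 RNA in the control and 5.65% ± 0.614 in the Arg libraries (SD, n = 3), without overlap. YAP1 therefore made up most of the RNA of this pair in every library, and the share of WWTR1 in a library was between 4.85% and 9.26% of the YAP1 level.
AMOTL2 (ENSG00000114019, chromosome 3, 134355874 to 134375479) was at 140.7, 162.9, and 151.3 CPM in the control and at 183.0, 212.7, and 206.6 CPM in the Arg libraries at 24 h. All Arg libraries were above all control libraries. The means were 151.6 ± 11.1 and 200.7 ± 15.7 CPM (SD, n = 3), and the log2 fold change was 0.40 (SE 0.085, 95% interval 0.23 to 0.58, edgeR adjusted p = 0.00798). This call was lost when 1 library was left out. Without control A, Arg B, or Arg C, the edgeR adjusted p of AMOTL2 was 0.0694, 0.0615, or 0.0556, and the log2 fold change stayed at 0.35, 0.36, or 0.38. In these fits, 126 to 149 of all genes were higher and 233 to 253 lower, against 398 and 549 with all libraries.

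The TEAD genes encode the DNA-binding partners through which YAP and TAZ act. At 24 h, TEAD3 (ENSG00000007866) was at 50.7, 53.9, and 43.6 CPM in the control and at 52.6, 64.5, and 62.9 CPM in the Arg libraries. TEAD4 (ENSG00000197905) was at 49.9, 43.4, and 51.4 CPM in the control and at 53.3, 63.1, and 55.1 CPM in the Arg libraries. TEAD4 did not overlap between the groups and TEAD3 did, but neither passed the correction. Their log2 fold changes were 0.28 (edgeR adjusted p = 0.117) and 0.24 (edgeR adjusted p = 0.151), and TEAD3 alone passed when Arg A was left out (edgeR adjusted p = 0.0447). TEAD1 (ENSG00000187079) had a log2 fold change of −0.11 (95% interval −0.28 to 0.05), with control libraries at 155.0 to 172.8 CPM and Arg libraries at 144.7 to 159.9 CPM. TEAD2, the remaining TEAD gene, was downregulated, from 17.2, 19.5, and 17.6 CPM to 12.03, 12.9, and 13.3 CPM, with a log2 fold change of −0.51 (SE 0.13, edgeR adjusted p = 0.0243). The TEAD2 call was lost without control A or C or without Arg B or C. Per kilobase, TEAD2 was 10.2% ± 0.670 of the RNA of the 4 TEAD genes in the control and 6.69% ± 0.329 in the Arg libraries, and TEAD4 was the largest share of both at 35.7% ± 3.68 and 39.3% ± 1.3 (SD, n = 3).
LATS2 (ENSG00000150457), the kinase that phosphorylates YAP and TAZ, was at 16.5, 14.4, and 16.4 CPM in the control and at 11.9, 17.1, and 12.8 CPM in the Arg libraries at 24 h. Arg B lay above the control and the other Arg libraries below it, and the log2 fold change of −0.18 had a 95% interval of −0.50 to 0.14.
CCN1 (ENSG00000142871), a secreted matrix protein and an early target of YAP, was at 182.6, 120.4, and 178.6 CPM in the control and at 136.5, 171.9, and 143.6 CPM in the Arg libraries at 24 h. CCN2 (ENSG00000118523), the related connective tissue growth factor, was at 15.6, 7.96, and 14.6 CPM in the control and at 15.5, 11.8, and 14.6 CPM in the Arg libraries. Both genes overlapped between the groups. The log2 fold changes were −0.09 for CCN1 (95% interval −0.36 to 0.17) and 0.13 for CCN2 (95% interval −0.29 to 0.55). The interval of CCN2 takes in a change of the size seen in AMOTL2, so such a change is not excluded.
ANKRD1 (ENSG00000148677), a nuclear ankyrin-repeat protein and a widely used YAP target, had 6, 4, and 14 counts in the control libraries and 0, 10, and 7 counts in the Arg libraries at 24 h. A count of 0 in Arg A allows up to 3 counts, and no fold was drawn from these values. Set beside the motif matches printed above, CCN2 (3 matches) did not pass and ANKRD1 (2 matches) was not tested at 24 h. Of the genes with 1 match, AMOTL2 rose, and YAP1 and LATS2 did not pass. Of those without a match, WWTR1 fell, and TEAD3 did not pass.

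**Figure D2:**
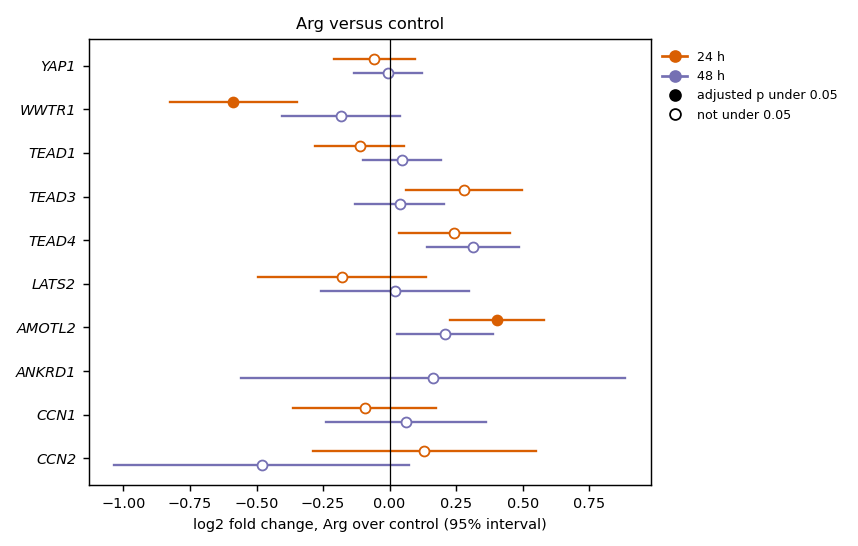
Log2 fold change of Arg over control (x axis) for each gene (y axis) at 24 h (orange) and 48 h (violet), with its 95% interval as a line and a filled point where the edgeR adjusted p was under 0.05. WWTR1 (−0.59) and AMOTL2 (0.40) at 24 h are the filled points, and ANKRD1 has no 24 h point because it was not tested.

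The share of mitochondrially encoded counts also differed between the groups at 24 h, with 1.2% to 1.3% in the control and 0.624% to 0.802% in the Arg libraries. Leaving out the mitochondrially encoded genes gave 393 genes higher and 544 lower (398 and 549 with them), and the WWTR1 and AMOTL2 calls held. Any other part of this share in the results was not tested. The fibroblast markers summed to 34.5 to 54.4 CPM in the control and 30.3 to 41.4 CPM in the Arg libraries, and DCN, 1 of the 4 that could be tested, was lower with Arg (−0.70, edgeR adjusted p = 0.0294), with overlap. Of these 4 markers, 2 had a positive log2 fold change, and DCN alone was called. The melanocyte markers, led by MITF, summed to 21.7 to 25.9 CPM in the control and 16.2 to 19.0 CPM in the Arg libraries, and MITF was lower with Arg (−0.49, edgeR adjusted p = 0.0280), without overlap. PMEL, the other of the 2 tested, went the other way, with means of 1.23 and 1.57 CPM, and was not called. The leukocyte markers summed to 2.09 to 3.41 and 1.29 to 2.10 CPM, and the 1 that could be tested did not overlap and did not pass (−0.89, edgeR adjusted p = 0.120). The endothelial markers summed to 0.921 to 2.88 and 0.757 to 3.01 CPM, and the keratinocyte markers to 39698 to 46484 and 44803 to 52612 CPM, with none called. The part of these markers in the results was not tested.

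Other genes of the pathway were read from lists chosen by function. Of 17 tested Hippo kinases and scaffolds (among them STK3, STK4, SAV1, LATS1, MOB1A, and NF2), 1 rose and 0 fell after 24 h of Arg, where 2.79% of all genes rose and 3.84% fell, and the median log2 fold change was −0.04, against 0.003 over all genes. AJUBA, a LIM protein that binds LATS kinases and restrains them, rose from 371.1, 363.3, and 328.8 CPM to 438.0, 493.2, and 481.4 CPM, with a log2 fold change of 0.41 (SE 0.079, edgeR adjusted p = 0.00458). Of the 4 listed TEAD partners (TEAD2 and the cofactors VGLL1, VGLL3, and VGLL4), only TEAD2 passed.
Of 17 other YAP and TAZ targets, 4 rose and 0 fell, beside the same shares of 2.79% and 3.84%, with a median of 0.06. IGFBP3, a secreted binding protein of insulin-like growth factors, rose most, from 48.4, 80.0, and 60.6 CPM in the control to 115.0, 126.6, and 121.0 CPM with Arg. Its log2 fold change was 0.94 (SE 0.13, edgeR adjusted p = 0.000244). CCDC80, a matrix protein, had a log2 fold change of 0.52, PTPN14, a phosphatase that binds YAP, of 0.42, and MYOF, a membrane-repair protein, of 0.30, with edgeR adjusted p-values of 0.00676, 0.0280, and 0.0350. Without control A or without Arg C, 1 target was called (IGFBP3), and without Arg B 2 were called (IGFBP3 and CCDC80). In these fits, 126 to 149 of all genes rose and 233 to 253 fell, against 398 and 549 with all libraries. In a single model of all 12 libraries, IGFBP3 and PTPN14 were not called, and MYOF, CCDC80, and FJX1 were. NT5E, the surface enzyme CD73, had a log2 fold change of −0.61 that did not pass (edgeR adjusted p = 0.0945). DESeq2 called 5 of the 17 higher and 0 lower, where 443 of 26579 genes were higher and 611 lower.
Among the other CCN genes, CCN3 was the only 1 of 4 with enough counts to test, and its log2 fold change of −0.42 did not pass (edgeR adjusted p = 0.172). Of 12 tested actin and serum response factor genes, 3 rose and 0 fell, beside 2.79% and 3.84% of all genes, and the median was 0.18. TAGLN, an actin-binding protein, rose from 7.64, 7.46, and 6.14 CPM to 16.6, 15.7, and 14.5 CPM, with a log2 fold change of 1.14 (SE 0.15, edgeR adjusted p = 2.00e-04). TPM1, a tropomyosin, and FLNA, an actin crosslinker, had log2 fold changes of 0.67 and 0.36, with edgeR adjusted p-values of 1.00e-04 and 0.0107. The calls of TAGLN and TPM1 held in all leave-one-out fits, whereas FLNA was lost without control C or without Arg B or C. Without control B of 24 h, 6 genes of this list rose and 1 fell. In that fit, 647 of all 14645 genes tested rose and 882 fell, against 398 and 549 of 14279 with all libraries.

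After 48 h of Arg, none of the 10 genes passed the correction with edgeR or with DESeq2, and 2 passed at an unadjusted p under 0.05. In the whole table, 0.117% of the 14562 genes tested passed the correction and 13.4% had an unadjusted p under 0.05. TEAD4 was at 36.1, 38.0, and 35.7 CPM in the control and at 43.9, 46.1, and 46.8 CPM in the Arg libraries, without overlap, as in 17.1% of all genes in either direction. Its log2 fold change was 0.31 (SE 0.080, unadjusted p = 0.00185 and adjusted p = 0.157 from edgeR's test). AMOTL2 was at 184.9, 221.7, and 182.5 CPM in the control and at 215.3, 222.0, and 244.1 CPM in the Arg libraries. Its log2 fold change was 0.21 (SE 0.083, unadjusted p = 0.0277 and adjusted p = 0.310 from edgeR's test). Control B was the only control library that reached the Arg range in AMOTL2.
WWTR1 was at 25.6, 23.4, and 27.0 CPM in the control and at 20.9, 22.6, and 23.6 CPM in the Arg libraries at 48 h. The groups overlapped, since control B lay below Arg C, and the log2 fold change was −0.18 (95% interval −0.41 to 0.04). YAP1 was at 315.0, 314.8, and 309.7 CPM and at 322.7, 313.0, and 301.8 CPM, with a log2 fold change of −0.01 (95% interval −0.13 to 0.12).
CCN2 was at 9.34, 17.3, and 10.1 CPM in the control and at 8.45, 6.31, and 11.6 CPM in the Arg libraries at 48 h. Its log2 fold change of −0.48 was the largest of the 10 in size, with a 95% interval from −1.03 to 0.07 (edgeR adjusted p = 0.437). CCN1 was at 120.9, 188.1, and 124.7 CPM and at 153.4, 139.6, and 160.6 CPM. In both CCN genes, control B was the highest of all 6 libraries. The log2 fold changes of TEAD1, TEAD3, and LATS2 were 0.05, 0.04, and 0.02, and that of ANKRD1 (27, 29, and 29 counts in the control and 30, 33, and 26 in the Arg libraries) was 0.16 with a 95% interval of −0.56 to 0.88.
The 48 h result depended on control B. Leaving out that library also raised the share of all genes called to 15.9% of 14854. In that fit, 3 of the 10 genes were upregulated by Arg, namely TEAD4 (0.34, edgeR adjusted p = 0.00573), AMOTL2 (0.30, edgeR adjusted p = 0.00127), and CCN1 (0.30, edgeR adjusted p = 0.00299). For CCN1, leaving out control A or C instead gave −0.05 or −0.04, so its direction at 48 h was set by which control library was kept.
No listed gene of the pathway passed the correction at 48 h in the main edgeR fit. The number with an unadjusted p under 0.05 was 2 of 17 for Hippo kinases and scaffolds, 0 of 4 for TEAD partners, 6 of 16 for other targets, 1 of 1 for other CCN genes, and 4 of 12 for actin genes. DESeq2 called CRIM1 and FLNA higher and NT5E lower at 48 h, and no gene of the Hippo or TEAD partner lists. In that fit, 39 of 27248 genes were higher and 128 lower. With edgeR and no low-count filter, CRIM1, IGFBP3, PTPN14, CCDC80, VGLL3, FLNA, and TPM1 were called higher and AXL and NT5E lower. In that fit, 199 of 27248 genes were higher and 374 lower. With the replicate letter as a block, PTPN14, FLNA, and TPM1 were called higher, where 43 of 14562 genes were higher and 141 lower. The largest log2 fold changes were 0.28 for LIMD1, a LATS-binding LIM protein, 0.31 for VGLL3, a TEAD cofactor, −0.77 for NT5E, −0.71 for CCN3, and 0.45 for TPM1. Without control B, 7 of 17 other targets were called, an alternative chosen after seeing the data. CRIM1, IGFBP3, PTPN14, CCDC80, and ARHGEF17 were then higher and AXL and NT5E lower with Arg. In the same fit, the calls in the other lists were TAOK2 (0.30), VGLL3 (0.59), FLNA (0.35), VCL (0.20), and TPM1 (0.81) higher and FHL2 (−0.33) and CCN3 (−1.03) lower. IGFBP3 was at 94.7, 436.0, and 84.4 CPM in control A, B, and C at 48 h, and at 339.0, 218.6, and 188.2 CPM in the Arg libraries, so control B lay above all 3 Arg libraries and the other control libraries below them.

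**Figure D3:**
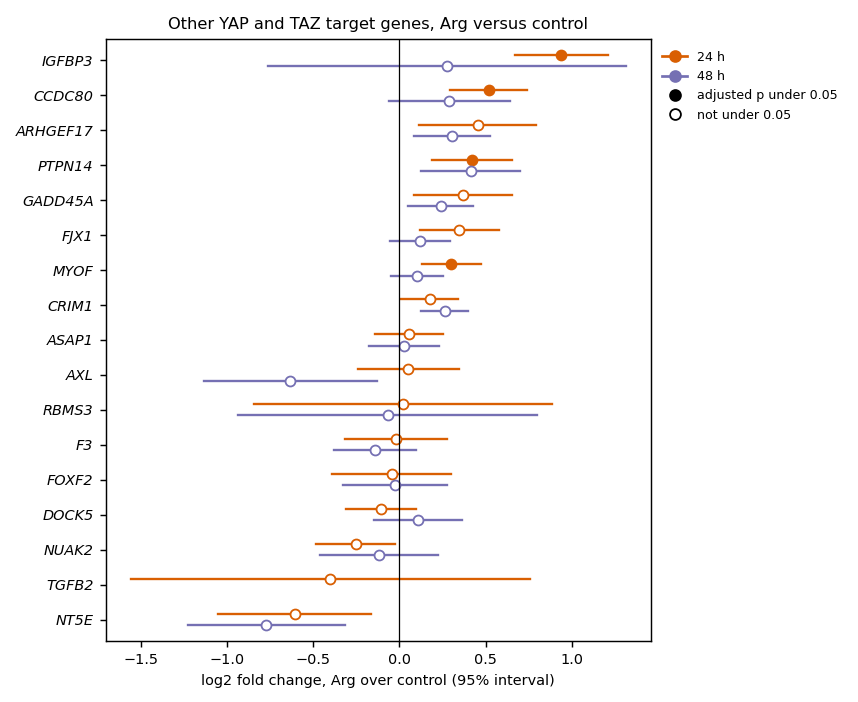
Log2 fold change of Arg over control (x axis) for the 17 other YAP and TAZ targets (y axis), ordered by the 24 h value, with 95% intervals and filled points where the edgeR adjusted p was under 0.05. IGFBP3, CCDC80, PTPN14, and MYOF are filled at 24 h and none at 48 h, where the interval of IGFBP3 is the widest, and TGFB2 has no 48 h point because it was not tested.

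A model of the 12 libraries with a term for treatment by time was used to ask whether the response to Arg differed between 24 and 48 h. For this interaction, none of the 10 genes passed the correction with edgeR or with DESeq2, against 0.0132% of the 15148 genes tested, and 1 passed at an unadjusted p under 0.05, against 6.87% of all genes. That gene was WWTR1, whose response was 0.41 higher on the log2 scale at 48 h than at 24 h (SE 0.15, unadjusted p = 0.0166 and adjusted p = 0.609 from edgeR's test). AMOTL2 had an interaction of −0.19 (95% interval −0.45 to 0.06) and CCN2 of −0.61 (95% interval −1.35 to 0.13). The call of WWTR1 at 24 h and its absence at 48 h are therefore not shown to differ after correction. The same holds for TAGLN and AJUBA, with interactions of −0.995 and −0.35 (edgeR adjusted p = 0.365 for each).

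Between 24 and 48 h, control cells lost WWTR1 and TEAD4 RNA and gained TEAD3 and AMOTL2 RNA. This comparison shares its control libraries with the Arg comparisons, so the values stand side by side and were not compared. Of the 9 genes other than ANKRD1, 4 passed the correction in the control, against 19.9% of the 14449 genes tested, with 2 higher (9.9% of all genes) and 2 lower (10% of all genes). ANKRD1 is described separately, since it passed the filter on low counts only through the 48 h libraries. WWTR1 had a log2 fold change of −0.55 (SE 0.11, edgeR adjusted p = 0.00800), from 32.1 to 40.8 CPM at 24 h to 23.4 to 27.0 CPM at 48 h, without overlap. TEAD4 had a log2 fold change of −0.40 (SE 0.095, edgeR adjusted p = 0.0144), and its 48 h libraries, at 35.7 to 38.0 CPM, were the lowest of all 12.
TEAD3 and AMOTL2 were upregulated in the control at 48 h. TEAD3 averaged 49.4 ± 5.24 CPM at 24 h and 63.6 ± 2.39 CPM at 48 h (SD, n = 3), a log2 fold change of 0.37 (edgeR adjusted p = 0.0190). AMOTL2 averaged 151.6 ± 11.1 and 196.4 ± 22.0 CPM (SD, n = 3), a log2 fold change of 0.38 (edgeR adjusted p = 0.0159). Each of these 4 genes was called in all alternatives that kept all libraries. Without control A of 24 h, none of the 4 was called, with edgeR adjusted p-values from 0.0555 for WWTR1 to 0.0946 for AMOTL2, and without control C of 24 h, WWTR1 alone was called. Fewer of all genes were called in these fits. Without control A, 422 of 14825 genes were higher and 406 lower, and without control C, 497 and 501 of 14890. With all libraries, 1431 and 1451 of 14449 were. Without control B of 48 h, the library that stood apart, all 4 were called, against 16.4% of 14749 genes.
TEAD1 was lower at 48 h in all control libraries (−0.21, edgeR adjusted p = 0.0586), and YAP1 likewise did not overlap (−0.12, 95% interval −0.26 to 0.02), although neither passed. TEAD1 passed with DESeq2 (adjusted p = 0.0367). Groups of 39% of all genes did not overlap in this comparison. The called changes within the TEAD family went in opposite directions. TEAD3 made up 27.2% ± 2.35 of TEAD RNA per kilobase at 24 h and 37.2% ± 1.22 at 48 h, and TEAD4 35.7% ± 3.68 and 28.7% ± 0.775 (SD, n = 3).

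In Arg cells, 2 of the 9 genes other than ANKRD1 passed the correction between 24 and 48 h, against 28.3% of the 14398 genes tested, with 0 higher (14.3% of all genes) and 2 lower (14% of all genes). TEAD4 averaged 57.2 ± 5.24 CPM at 24 h and 45.6 ± 1.54 CPM at 48 h (SD, n = 3), a log2 fold change of −0.33 (SE 0.086, edgeR adjusted p = 0.00794), a call that held in all 14 alternatives. CCN2 averaged 13.9 ± 1.89 and 8.80 ± 2.68 CPM (SD, n = 3), a log2 fold change of −0.66 (SE 0.18, edgeR adjusted p = 0.00972) and without overlap between 11.8 to 15.5 and 6.31 to 11.6 CPM, as in 42.2% of all genes. The CCN2 call was lost without Arg B of 48 h (edgeR adjusted p = 0.0671) and in a single model of all libraries (0.0658). In the control, the same comparison of CCN2 gave −0.05 with a 95% interval of −0.63 to 0.53. The difference between those changes is the interaction given above, which did not pass.
ANKRD1 was near the limit of detection at 24 h. Over the groups, its summed counts were 24 and 17 in control and Arg at 24 h and 85 and 89 at 48 h. All 6 libraries of 48 h (26 to 33 counts) lay above all 6 of 24 h (0 to 14 counts). The fitted log2 fold changes were 1.71 in the control (SE 0.49) and 2.37 in Arg cells (SE 0.60). A gene that enters the test only through the group where it is high had to differ, so these values are a description. The counts of called genes with time given above leave ANKRD1 out. ANKRD1 was less abundant than every other of the 10 genes in every library.
WWTR1 in Arg cells averaged 24.7 ± 2.14 and 22.4 ± 1.34 CPM (SD, n = 3), a log2 fold change of −0.14 (95% interval −0.36 to 0.07). The 24 h control libraries thus stood above the other 9 libraries in WWTR1. AMOTL2 was higher in all 48 h Arg libraries than in all 24 h Arg libraries (0.18, edgeR adjusted p = 0.0766), and LATS2 had a log2 fold change of 0.34 (edgeR adjusted p = 0.0954), but neither passed. CCN1 in Arg cells had a log2 fold change of 0.01 (95% interval −0.17 to 0.18).
Of the other YAP and TAZ targets, 5 rose and 3 fell in the control (17 tested) and 6 rose and 5 fell in Arg cells (16 tested) between 24 and 48 h. The median log2 fold changes were −0.05 and 0.004, against 0.01 and 0.0009 over all genes. The shares over all genes were 9.9% higher and 10% lower in the control and 14.3% higher and 14% lower in Arg cells. In the control, the log2 fold changes of IGFBP3, CCDC80, PTPN14, and MYOF with time were 1.71, 1.22, 0.72, and 0.56, from the same 24 h control libraries as in the Arg comparison. Without control B of 48 h, the value of IGFBP3 was 0.51 (edgeR adjusted p = 0.0311). IGFBP3 was not called by DESeq2, and IGFBP3 and PTPN14 were not called without control A or C of 24 h. NT5E fell by 1.69 in the control and by 1.85 in Arg cells. The actin list gave 3 higher and 5 lower in the control and 3 higher and 4 lower in Arg cells, of 12 tested. Of the Hippo kinases and scaffolds, 1 rose and 2 fell in the control and 3 rose and 5 fell in Arg cells, of 17 tested. The TEAD partner list gave 1 higher of 4 in each, and this was VGLL3 (0.68 in the control and 0.85 in Arg cells). In the control, DESeq2 did not call VGLL3, and it was not called without control B of 48 h or without control A or C of 24 h. The Hippo list had 0 called without control A or C of 24 h or control A of 48 h. The actin list gave 0 higher and 2 lower without control A of 24 h, and 1 higher and 2 lower without control C. Of all genes, 422 were higher and 406 lower without control A of 24 h, and 497 and 501 without control C. CCN3 was called lower in Arg cells only (−0.58, edgeR adjusted p = 0.0425), and the difference between treatments was not called.
The summed fibroblast markers were also higher at 48 h than at 24 h in both treatments, with DCN at 31.7 ± 8.82 and 66.7 ± 8.28 CPM in the control (SD, n = 3), and 2 of 4 tested were called higher in each. The endothelial markers summed to 0.757 to 3.01 CPM at 24 h and 4.09 to 6.41 CPM at 48 h, and 1 of 2 tested was called higher in the control and 2 of 2 in Arg cells. Only 1 endothelial marker had enough counts to be tested between the 24 h groups. The other entered the tests with time only through its 48 h libraries, so its values with time are a description. Of the 10 keratinocyte markers, 5 were called higher in each treatment, and 1 was called lower in Arg cells. Over all genes, 9.9% were called higher and 10% lower with time in the control, and 14.3% and 14% in Arg cells. MITF was called higher in Arg cells (0.41, edgeR adjusted p = 0.0140), and the leukocyte list had 0 called in each. The part of these markers in the changes with time was not tested, and COL1A2 was at or near 0 throughout.

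**Figure D4:**
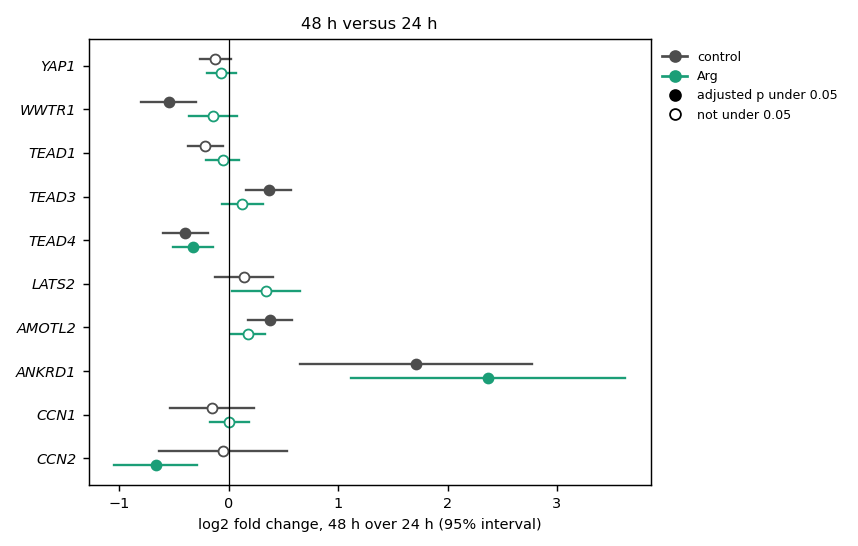
Log2 fold change of 48 h over 24 h (x axis) for each gene (y axis) in the control (dark grey) and in Arg cells (green), with its 95% interval and a filled point where the edgeR adjusted p was under 0.05. TEAD4 (−0.40 and −0.33) and ANKRD1 (1.71 and 2.37) are filled in both treatments (ANKRD1 entered the test only through its 48 h libraries), WWTR1, TEAD3, and AMOTL2 in the control, and CCN2 in Arg cells.

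The spread within groups was not the same for all 10 genes. YAP1 had an SD of 3.01 to 10.5 CPM around means of 312.5 to 341.1 CPM, whereas CCN1 in the control had an SD of 34.8 and 37.8 CPM around means of 160.5 and 144.6 CPM. Each library's deviation from the mean of its group was therefore compared between CCN1 and CCN2. Control B was low in both genes at 24 h (−0.39 and −0.61 on the log2 scale) and high in both at 48 h (0.41 and 0.55). Over the 12 libraries, Pearson's r of the deviations was 0.78 and Spearman's rho was 0.73, and without these 2 libraries r was 0.57 over 10. The group means still included control B, so the deviations of control A and C, and the r of 0.57, still depend on it. The points share their library's depth and scaling, so r is given as a description. The 45 pairs among the 10 genes ranged from −0.81 for YAP1 and WWTR1 to 0.83 for TEAD4 and LATS2.

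**Figure D5:**
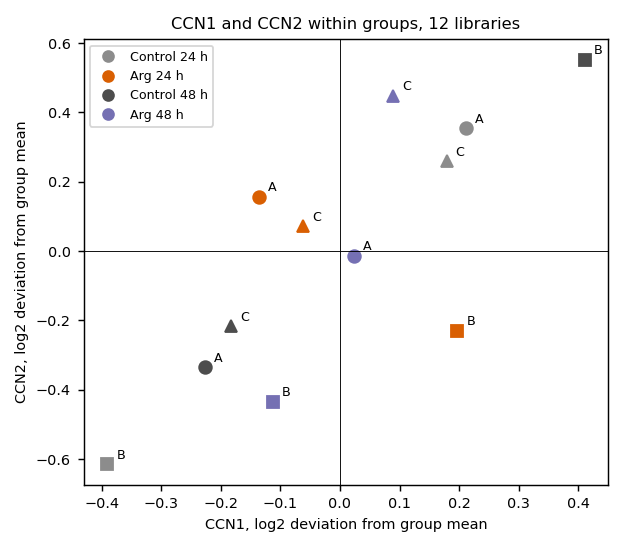
Log2 deviation of each library from its group mean in CCN1 (x axis) and CCN2 (y axis), with color for the group and letter and shape for the replicate. Control B is at the lower left for 24 h and at the upper right for 48 h, and Arg B of 24 h is high in CCN1 and low in CCN2.

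The genes whose log2 CPM followed a member most closely over the 12 libraries were ranked by Pearson's r among 15148 genes. For WWTR1 these were SIRT1 (0.97), ITGA6 (0.97), and STK17A (0.97), and for YAP1 TBC1D20 (0.95) and CEBPG (0.93). For CCN2 they were MIR17HG (0.94), TMEM243 (0.89), and GTF2H2 (0.87). The r of CCN1 with its closest gene, AC046143.1, was 0.87. These values take in the group differences as well as the spread within groups.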

How the data were processed

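RNA sequencing of TIGK cells was used, with 12 libraries in 4 groups. Reads were trimmed with fastp, mapped with STAR to GRCh38/hg38, and summed by gene with featureCounts, and the authors deposited the raw counts without scaling. Versions, annotation release, and strandedness of the counting are not given in the sources used here. Groups and letters were taken from the labels.

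Each comparison was fitted on its 2 groups with edgeR 4.0.16 in R 4.3.3 (TMM, edgeR's filter on low counts, quasi-likelihood test, Benjamini–Hochberg over all tested genes, threshold 0.05), and the interaction was tested over the 12 libraries. The code was tested on simulated data. Levels are CPM after TMM, also divided by the exonic length. With 3 libraries against 3, an exact permutation test cannot give a p below 0.1. The 10 genes and the lists were chosen with earlier results of these data known. Named from the lists were the genes that passed in an Arg comparison (at most 5 per list and comparison), the largest change where none passed, and up to 3 genes most like YAP1, WWTR1, CCN1, and CCN2, of which some are not reported here. CRIM1, ARHGEF17, AXL, FJX1, TAOK2, VCL, FHL2, NT5E at 24 h, and the time values of listed genes were named after their values were seen. Alternatives were DESeq2 1.42.0, DESeq2 size factors within edgeR, no TMM (library size only), no low-count filter, a minimum of 10 counts in each library, a single model of 12 libraries, the replicate block, removal of mitochondrially encoded genes, and removal of each library in turn. The main fits used no block, since the study's methods describe comparisons of 2 groups and name no block.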

Additional observations from a re-analysis of the deposited data

How the results depend on the processing

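Of the 10 genes, the number called ranged over the leave-one-out fits from 1 to 3 for Arg against control at 24 h (2 with all libraries), from 0 to 3 at 48 h (0), and from 0 to 4 for 48 h against 24 h in the control (5, ANKRD1 included). The libraries that decide these numbers are named in the report. The log2 fold changes that changed sign when 1 library was left out were uncalled with all libraries. At 24 h, they ranged from −0.27 to 0.0086 for CCN1 and from −0.12 to 0.31 for CCN2. At 48 h, the ranges were −0.10 to 0.11 for LATS2, −0.053 to 0.30 for CCN1, −0.013 to 0.089 for TEAD3, −0.033 to 0.022 for YAP1, and −0.0092 to 0.077 for TEAD1. With time they were −0.38 to 0.12 for CCN2 in the control and −0.062 to 0.11 for CCN1 in Arg cells, and the interaction of ANKRD1 ranged from −0.033 to 1.38. With library size only, CCN2 in the control became 0.013 and TEAD1 in Arg cells 0.0021 with time. That scaling moved the median of all genes by about 0.06 and gave 1845 genes higher and 1008 lower in the control (1431 and 1451 after TMM) and 2568 and 1453 in Arg cells (2060 and 2012). Without control B at 48 h, 7 of the other targets were called (0 in the main fit). With all libraries but no low-count filter, 4 of 17 were called higher and 2 lower. The cause of these shifts was not tested.

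The letters A, B, and C were not treated as pairs in the main fits. The correlation of same-letter deviations lay between −0.06 and 0.13, but deviations from means of 3 libraries cannot decide whether the letters pair. With the letter as a block, 2, 0, 6, 3, and 0 of the 10 genes were called (Arg at 24 h, Arg at 48 h, time in the control, time in Arg cells, and the interaction), and TEAD1 was the added gene. The 6 and the 3 include ANKRD1, which entered those tests only through its 48 h libraries. With the block, 1969 of all 14449 genes were higher and 2075 lower with time in the control, against 1431 and 1451 without it. For Arg at 24 h, the block gave 379 higher and 545 lower of 14279. With time in Arg cells, it gave 1926 and 1853 of 14398. At 48 h, the 17 genes called in the whole table became 184 with the block, 167 with DESeq2, 573 without a filter, 41 in a single model, and 6 to 2365 when a library was left out. At 24 h, 947 became 359 to 1529 in the leave-one-out fits, and with time in the control 2882 became 828 to 3304. The 2 genes called in the interaction became 15 with DESeq2, 88 without a filter, and 0 to 46 in the leave-one-out fits. The depth left ANKRD1 untested at 24 h.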
